A study of Drosophila melanogaster with 6 samples.

Results

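The odorant-binding protein (Obp) genes were examined in late Drosophila melanogaster embryos. A gene was a member when the FlyBase symbol paired with its identifier began with Obp and a digit. This gave 51 members among 17559 gene identifiers with a read count. Every one of the 51 Obp symbols in the name table used here was found in the count files. The gene lush, an Obp by family but not by symbol, was left out of the members and is described as context.

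There were 6 RNA sequencing libraries from pools of 100 whole embryos at 20 to 22 hours after egg laying, when the larval sense organs have formed and hatching is near. In 3 of them the embryos carried lola-O, which per the labels knocks out the O isoform of lola, opposite the deficiency Df(2R)ED2076. In the other 3, the controls, a wild-type chromosome was over that same deficiency, so the deficiency is common to all 6 libraries. lola encodes many BTB zinc-finger transcription factor isoforms with roles in axon growth and guidance. The comparison asks which transcripts differ when isoform O is disrupted. The labels do not say how alike the lola-O and wild-type chromosomes are outside lola. So an effect of isoform O and one of other genetic differences, on chromosome 2 or another chromosome, cannot be told apart. They also do not say whether the 3 libraries of a group came from separate crosses, so p-values measure the spread between these libraries, which may be technical. The identifier of lola in the annotation used here was not analysed here, and the genotype was taken from the labels.

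Obp genes encode small secreted proteins with a pocket that holds hydrophobic molecules. In insect sensilla they are made by support cells and released into the lymph around the dendrites of olfactory and taste neurons, where they carry, buffer or remove ligands. Many members are made outside sense organs, among them in glia, the gut and the male reproductive tract, so the name does not fix the function. Members are grouped by their conserved cysteines into classic, minus-C, plus-C and double-domain proteins, and most lie in tandem clusters.

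Library totals ranged from 16217213 to 22759638 counts, and the Obp genes together took 0.0914% to 0.0972% of them. The limit set by no count at all, taken as 3 counts, was 0.132 to 0.185 CPM (counts scaled to a library of 1000000), and it covers counting error only.

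Of the 51 Obp genes, 20 reached a mean of at least 1 CPM in lola-O or control embryos and are called expressed here, a share of 39.2%. Over all 17559 identifiers the same rule kept 55.8%. All 20 passed in the controls and 19 in lola-O, where Obp58d averaged 0.928 CPM. A further 19 members had some counts but less than 1 CPM, and 12 had no count in any library. CPM here are scaled by the trimmed mean of M-values (TMM).

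A pair of genes dominated the family in both genotypes. Obp44a, a minus-C member known from glia of the fly brain, had 333, 325 and 339 CPM in lola-O libraries 1, 2 and 3, against 324, 330 and 344 CPM in control libraries 1, 2 and 3. Obp56a had 215, 224 and 231 CPM in the lola-O libraries, against 220, 224 and 210 CPM in the control libraries. The ranges of the genotypes overlapped for both genes. Together they made up 58.9% to 59.8% of the summed Obp CPM in lola-O libraries and 57.1% to 58.1% in control libraries. The sum over all 51 genes was 928 to 953 CPM in lola-O libraries and 949 to 968 CPM in control libraries.

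**Figure D1:**
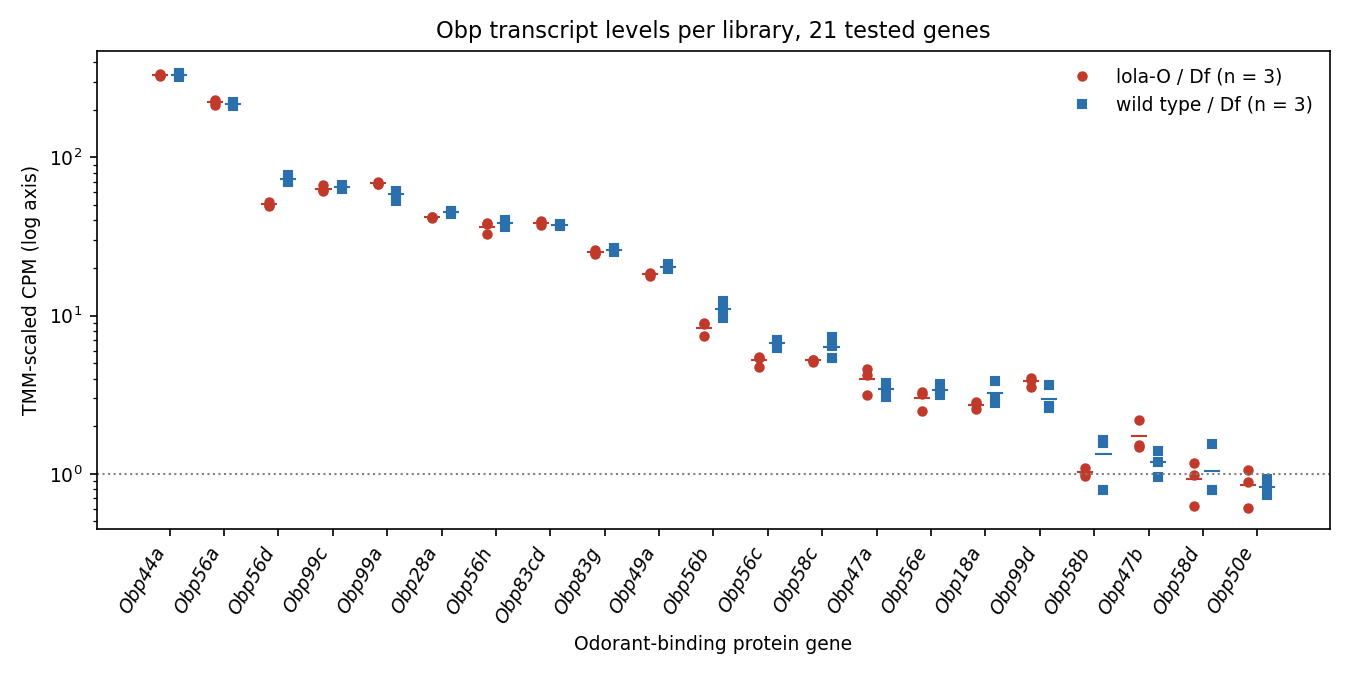
TMM-scaled CPM of the 21 tested Obp genes on a log axis, lola-O libraries as circles and control libraries as squares, with a short line at each group mean and a dotted line at 1 CPM. Obp44a and Obp56a stand above 200 CPM in all 6 libraries, and Obp56d is the gene above 10 CPM whose groups lie farthest apart.

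Levels of different genes can be compared only per length, so CPM were divided by the kilobases of the longest annotated transcript to give RPKM. On this scale Obp56a led with 408 ± 14.8 RPKM in lola-O and 398 ± 13.5 RPKM in controls (SD, n = 3 each). Obp44a followed with 309 ± 6.76 RPKM in lola-O and 309 ± 9.80 RPKM in controls. The minus-C genes Obp99c and Obp99a came next, with Obp99c at 110 ± 5.31 RPKM in lola-O and 112 ± 3.23 RPKM in controls. Among the 10 highest genes in the controls, the ranges of neighbours in the order overlapped for 1 pair, Obp56d at 75.6 to 83.6 RPKM and Obp28a at 76.0 to 79.8 RPKM. In lola-O embryos Obp56d held rank 7, with 54.8 ± 1.53 RPKM, below Obp28a and Obp56h, while in controls it held rank 5. Its lola-O range of 53.5 to 56.5 RPKM overlapped that of Obp56h at 55.3 to 64.9 RPKM and lay below that of Obp28a at 72.4 to 73.3 RPKM. From rank 13 to 17 in the controls (Obp56c, Obp47a, Obp56e, Obp99d and Obp18a) the ranges of every neighbouring pair overlapped, and so did those of Obp58b, Obp47b and Obp58d at the bottom. With all exon bases as length, the 20 genes kept the same control order, but the ranges of Obp99c and Obp99a then overlapped.

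The expressed genes were spread over all structural groups, while the members listed here for the adult antenna or male reproductive tract were mostly near 0. Of 13 plus-C genes, 5 were expressed: Obp49a, Obp58b, Obp58c, Obp58d and Obp47b. Of 6 minus-C genes, 4 were expressed: Obp44a, Obp99a, Obp99c and Obp99d. Of the 2 double-domain genes, Obp83cd was expressed and Obp83ef was not. Of 8 genes listed here as known from sensilla of the adult antenna, Obp28a alone was expressed. Obp59a, which acts in humidity sensing in the adult antenna, had no count. The other 6 (Obp19a, Obp19d, Obp69a, Obp83a, Obp83b and Obp84a) had at most 8 counts summed over 3 libraries of a genotype. The antenna list is not complete: Obp56d, made in larval and adult chemosensory organs, is not on it and had 72.7 CPM in controls. Obp49a and Obp56h, described below by roles in adults, are on neither adult list and were also expressed. Of 6 genes listed here for the adult male reproductive tract, none was expressed, but this list too may not be complete. Of these, 4 had no count (Obp22a, Obp51a, Obp56f and Obp56i), and Obp8a and Obp56g completed a sum of 10 counts in lola-O and 3 in controls.

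The expressed genes lay on 2R (13 of 29 members), 3R (5 of 12), X (1 of 6) and 2L (1 of 2), and neither of the 2 members on 3L was expressed. In 10 places at least 2 members followed each other with gaps of at most 20 kb, and these clusters differed in how many members were expressed. In the Obp56 cluster on 2R (19697723 to 19713976 in BDGP6.54) 5 of 6 genes were expressed, Obp56a to Obp56e. In the cluster of Obp59a and Obp58b to Obp58d on 2R, 3 of 4 were expressed. None of the 5 genes of the Obp50 cluster, none of the 4 of the Obp19 cluster on X and none of the 5 Obp57 genes reached 1 CPM. Obp57d and Obp57e, which act in the taste response to fatty acids, had no count.

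The annotation limits what a low count means for some of these genes. Obp50b and Obp50c share all of their exon bases on the same strand, and so does Obp57d with the cuticle gene Cpr57A; all 4 had no count, and the treatment of reads that fall in several genes is not given in the sources used here. Other members share exon bases with a gene on the opposite strand. Obp47b shares 100.0% of its bases with CG7741, Obp56e 84.4% with asRNA:CR44509 and Obp93a 83.2% with CG5793. Obp84a shares 81.2% with Dtwd2, Obp59a, which had no count, 22.2% with CG30259 and Obp44a 19.1% with Pabp2. The overlaps of Obp83cd with Obp83ef, Obp69a with CG32104 and Obp99c with Gycalpha99B were 10.2% or less. Since the strand setting of the counting is not given, reads of such pairs may not have been separated. CG7741 had 13.4 CPM in lola-O and 11.8 CPM in controls, above Obp47b, and asRNA:CR44509 had no count.

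Between the genotypes, 4 of 21 tested Obp genes differed, and each change was small. Expression was tested with edgeR's quasi-likelihood test over 10312 genes that passed a low-count filter, with calls at a Benjamini-Hochberg adjusted p below 0.05. The filter kept the 20 expressed Obp genes and Obp50e. Obp99a rose, Obp56b, Obp56c and Obp56d fell, and 17 did not pass. The called share was 19.0%, while 39.7% of all tested genes were called (20.2% higher and 19.5% lower). No tested Obp gene changed at least 2-fold, called or not, while 1.62% of all tested genes were both called and changed at least 2-fold. The median log2 fold change, lola-O over control, was -0.087 over the tested Obp genes and 0.001 over all tested genes. Since the tissue was whole embryos, fewer cells of a type and less RNA per cell cannot be told apart.

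**Figure D2:**
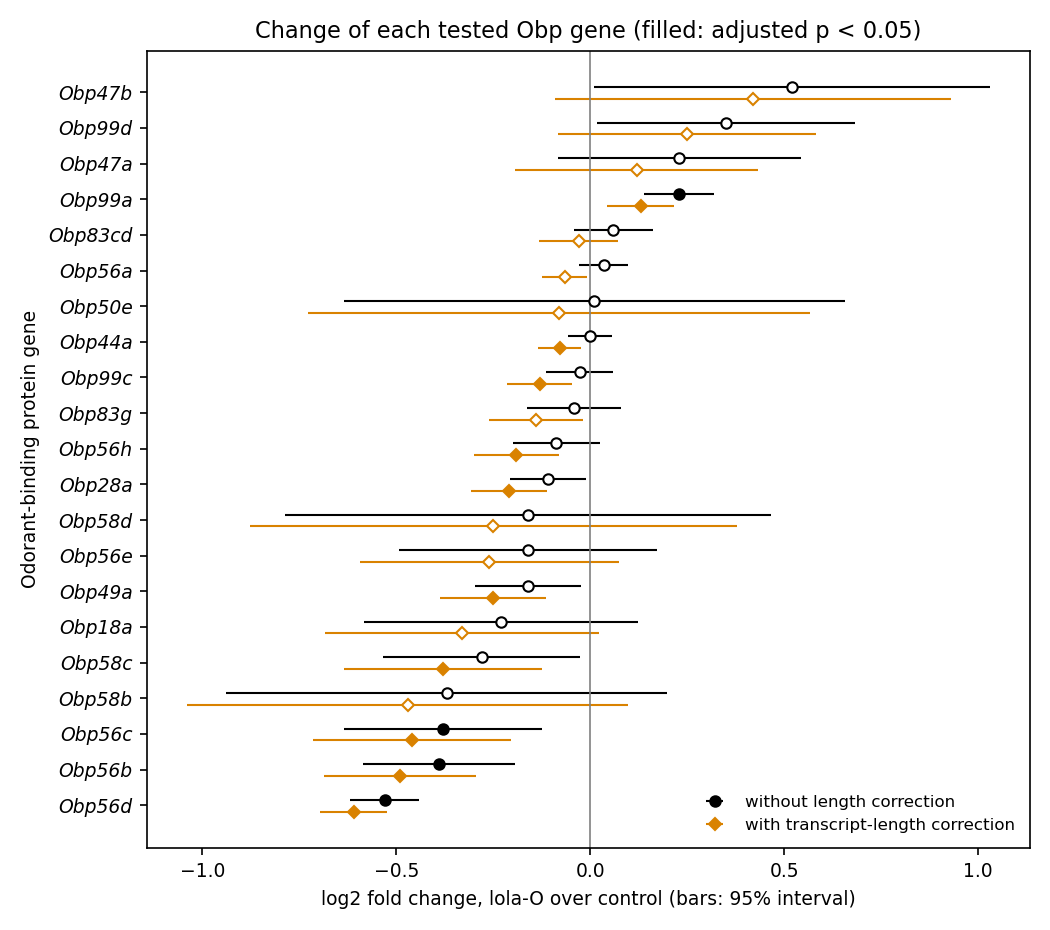
Log2 fold change (lola-O over control) of the 21 tested Obp genes with bars of the approximate 95% interval, as circles without and as diamonds with the transcript-length correction; filled symbols passed edgeR at an adjusted p below 0.05. Without the correction Obp56d, Obp56b and Obp56c sit lowest, Obp99a is filled right of 0, and every diamond lies left of its circle.

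The largest called change was that of Obp56d, a classic member made in larval and adult chemosensory organs (2R, 19702924 to 19703915, minus strand). It had 970, 802 and 1055 counts in lola-O libraries 1 to 3, against 1544, 1748 and 1242 counts in control libraries 1 to 3. These were 49.4, 50.2 and 52.1 CPM in lola-O, against 71.4, 77.1 and 69.7 CPM in controls. All lola-O libraries were below all control libraries, with a gap wider than the range of either group. The log2 fold change was -0.53 (SE 0.045, edgeR adjusted p = 5.03e-16), a difference of -30.6%. It passed in all 15 alternative fits.

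The adjacent genes Obp56c and Obp56b fell by similar amounts at lower counts. Obp56c (2R, 19699995 to 19701124, minus strand) had 5.39, 5.45 and 4.74 CPM in lola-O, against 7.03, 6.26 and 6.96 CPM in controls. Its log2 fold change was -0.38 (SE 0.13, edgeR adjusted p = 0.0127), and the call was lost in 3 alternatives. It was -0.31 without lola-O 3 (edgeR adjusted p = 0.0880), -0.35 without control 1 (edgeR adjusted p = 0.0560) and -0.38 with DESeq2 on all 6 libraries (adjusted p = 0.0550). Obp56b (2R, 19698714 to 19699346, minus strand) had 8.96, 7.39 and 8.79 CPM in lola-O, against 10.8, 12.4 and 9.65 CPM in controls. Its log2 fold change was -0.39 (SE 0.10, edgeR adjusted p = 0.00153), and without control 2 it was -0.28 (adjusted p = 0.0508). The libraries of the genotypes did not overlap for either gene. Groups without overlap were found for 8 of the 21 tested Obp genes, 2 higher and 6 lower, and for 47.8% of all tested genes (24.1% higher and 23.7% lower).

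The other members of the cluster did not pass. Obp56a (2R, 19697723 to 19698508, plus strand) ends 206 bases from Obp56b and is the most abundant Obp transcript per length; its log2 fold change was 0.035, with an approximate 95% interval of -0.028 to 0.098. Obp56e, on the plus strand, had 3.01 ± 0.438 CPM in lola-O and 3.40 ± 0.282 CPM in controls (SD, n = 3 each). Its log2 fold change was -0.16 (95% interval -0.49 to 0.18). Obp56f had no count. Obp56h, farther along 2R and linked to male mating behaviour in adults, had 32.8, 38.5 and 37.8 CPM in lola-O, against 39.5, 36.1 and 40.3 CPM in controls. These groups overlapped, and the log2 fold change was -0.087 (SE 0.057). The members that fell are the 3 on the minus strand, which follow each other without another annotated gene between them. The neighbouring members on the plus strand did not pass, but the interval of Obp56e includes the changes of Obp56b and Obp56c. With the transcript-length correction Obp56h, also on the plus strand, fell (-0.19, edgeR adjusted p = 0.00705). A difference between the strands was not tested.

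Ratios within a library do not depend on the scaling between libraries, so the neighbours were also set against each other. Obp56d had 23.0%, 22.5% and 22.5% of the counts of Obp56a in lola-O, against 32.4%, 34.5% and 33.3% in controls. The difference in mean log2 ratio was -0.56. For Obp56b the difference against Obp56a was -0.42, for Obp56c -0.41 and for Obp56e -0.22. An exact 2-sided permutation test over the 20 splits of 6 libraries gave p = 0.1 for the first 3, the smallest p it allows, and 0.3 for Obp56e. With this floor the test could not reach 0.05 for any ratio. Over the 6 ratios computed, which were chosen after the values were seen, the adjusted p were 0.12 and 0.3. For Obp56d against Obp56h the difference was -0.43 (exact permutation p = 0.1, adjusted 0.12).

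**Figure D3:**
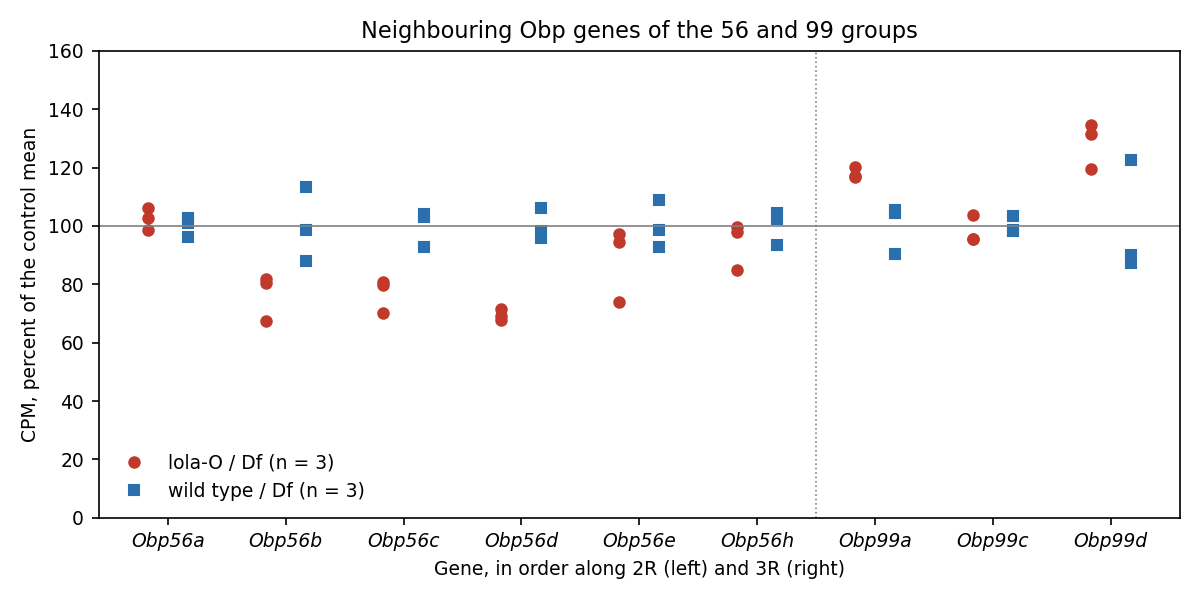
CPM of each library as a percent of the control mean, for 6 Obp56 genes and 3 Obp99 genes in chromosomal order, lola-O libraries as circles and control libraries as squares. The lola-O circles of Obp56b, Obp56c and Obp56d lie below all control squares, those of Obp99a lie above them, and for Obp56a and Obp99c the ranges of the genotypes overlap.

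Obp99a, a minus-C member on 3R (29671657 to 29672334, plus strand), rose. It had 68.2, 70.0 and 68.0 CPM in lola-O, against 60.8, 61.4 and 52.7 CPM in controls, without overlap. Control library 3 was the low one. The log2 fold change was 0.23 (SE 0.046, edgeR adjusted p = 2.88e-05). It passed in all 15 alternative fits, but was 0.13 with the transcript-length correction. Obp99c, the next member along the chromosome, had 67.1, 61.8 and 61.7 CPM in lola-O, against 63.8, 66.8 and 63.5 CPM in controls, and its log2 fold change was -0.027 (SE 0.044). Within libraries, Obp99a had 102%, 113% and 110% of the counts of Obp99c in lola-O, against 95.4%, 91.9% and 83.0% in controls. The difference in mean log2 ratio was 0.27 (exact permutation p = 0.1, the smallest it allows, adjusted 0.12). Obp99d had 3.83 ± 0.239 CPM in lola-O and 2.98 ± 0.584 CPM in controls (SD, n = 3 each), with overlapping groups. Its log2 fold change of 0.35 (SE 0.17) had an edgeR adjusted p of 0.0951. Without control 1 it was 0.53 and passed (edgeR adjusted p = 0.0274). The genes that flank Obp99a, the ion channel genes ppk30 and ppk19, had 16 and 3 counts summed over the lola-O libraries and 27 and 4 over the control libraries, and were not tested.

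The other expressed members had no call without the transcript-length correction, and their precision differed widely. Obp28a, abundant in the adult antenna (2L, 7496791 to 7497365), had 41.6, 42.1 and 41.9 CPM in lola-O, against 43.7, 45.7 and 45.9 CPM in controls. The groups did not overlap, but edgeR gave an adjusted p of 0.0844 for the log2 fold change of -0.11 (SE 0.050). With the transcript-length correction it was -0.21 and passed (adjusted p = 5.56e-04 in edgeR). Obp49a, a plus-C member that acts where bitter compounds suppress sweet taste in adults, had 17.9, 18.3 and 18.5 CPM in lola-O, against 21.1, 20.2 and 19.6 CPM in controls. Its groups did not overlap either, and edgeR gave an adjusted p of 0.0698 for the log2 fold change of -0.16 (SE 0.070); with the correction it was -0.25 and passed (adjusted p = 0.00346). For Obp44a the approximate 95% interval was -0.057 to 0.058, the narrowest of all the Obp genes tested. With the correction Obp44a was at -0.079, outside that interval, and passed (adjusted p = 0.0238 in edgeR). The gene that shares exon bases with it, Pabp2, rose by 0.28 (edgeR adjusted p = 4.59e-07).

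On 3R, Obp83cd had 38.8, 37.5 and 39.9 CPM in lola-O, against 36.7, 37.7 and 37.4 CPM in controls, and Obp83g had 26.1, 24.5 and 25.0 CPM in lola-O, against 25.8, 25.4 and 26.7 CPM in controls. Both overlapped between genotypes, with log2 fold changes of 0.059 (SE 0.052) and -0.042 (SE 0.062). Obp83ef, between them, had 4, 1 and 1 counts in lola-O, against 8, 6 and 4 in controls, and was not tested.

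The plus-C genes of the Obp58 cluster had few counts. Obp58c had 5.24, 5.26 and 5.09 CPM in lola-O, against 5.37, 6.39 and 7.35 CPM in controls, with no overlap. For the log2 fold change of -0.28 (SE 0.13) edgeR gave an adjusted p of 0.0793, but the value depended on the controls. Without control 1 it was -0.40 and passed (edgeR adjusted p = 0.0242), and without control 3 it was -0.18 (edgeR adjusted p = 0.34). Obp58b had 0.967, 1.00 and 1.09 CPM in lola-O, against 0.787, 1.63 and 1.57 CPM in controls. Obp58d had 1.17, 0.626 and 0.988 CPM in lola-O, against 0.787, 1.54 and 0.786 CPM in controls. The controls of both genes spread more widely than the difference between the means. Obp18a, the expressed member on X, had 2.85, 2.76 and 2.57 CPM in lola-O, against 3.01, 2.82 and 3.87 CPM in controls, with overlap.

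Members near lola were looked at for their position. lola lies on 2R from 10481894 to 10543291, and the nearest members were Obp46a at 169.9 kb, Obp47a at 366.6 kb and Obp47b at 759.0 kb. Obp46a had 6 counts summed over the lola-O libraries and 14 over the control libraries and was not tested. Obp47a had 4.58, 3.13 and 4.20 CPM in lola-O, against 3.05, 3.53 and 3.76 CPM in controls, with overlap and a log2 fold change of 0.23 (SE 0.16). It was 0.11 without lola-O 1, 0.35 without lola-O 2 and 0.14 without control 1. Obp47b had 1.48, 2.19 and 1.53 CPM in lola-O, against 1.39, 1.19 and 0.954 CPM in controls. Its groups did not overlap, and its log2 fold change of 0.52 (SE 0.26) did not pass (edgeR adjusted p = 0.109); without lola-O 2 it was 0.34. The Obp56 genes that fell lie 9155.4 to 9159.6 kb from lola, and Obp99a is on another chromosome.

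The members below the filter add little on the comparison. Obp50e, the tested member under 1 CPM, had 0.611, 1.06 and 0.889 CPM in lola-O, against 0.833, 0.926 and 0.729 CPM in controls. The 18 untested members with any count had at most 13 counts in a library. In a fit without the filter none of them passed edgeR; the lowest adjusted p was that of Obp57b at 0.0738, and Obp57b and Obp69a had an unadjusted p below 0.05. Obp57b had 3, 4 and 2 counts in lola-O, against 13, 13 and 2 in controls, so control 3 differed from the other controls. With a library left out it was tested and passed edgeR in 2 cases, without control 3 (log2 fold change -1.82, adjusted p = 0.0108) and without lola-O 2 (-1.79, adjusted p = 0.0496). Obp69a, known from the adult antenna, had 4, 3 and 1 counts in lola-O, against 1, 0 and 0 in controls.

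Changes in these libraries ran along transcript length, and the Obp genes are short. Over the 10110 tested genes whose length is annotated, log2 fold change and length of the longest transcript had a Spearman's rho of -0.31, a description across genes, which are not replicates. In the shortest of 10 equal bins by length, the median change was 0.097 on the log2 scale. The tested Obp genes had transcripts of 498 to 1076 bases. After a correction of each library for its trend with length, 10 of 21 Obp genes passed (47.6%), 1 higher and 9 lower, while 31.9% of all tested genes did (16.7% higher and 15.1% lower). The median Obp log2 fold change was then -0.19. The 4 calls above all remained, with Obp56d at -0.61 and Obp99a at 0.13. The 6 genes called in the corrected fit alone were Obp28a at -0.21, Obp44a at -0.079, Obp49a at -0.25, Obp56h at -0.19, Obp58c at -0.38 and Obp99c at -0.13. How many Obp genes were lower in lola-O therefore depended on this correction. Whether the trend with length comes from the libraries or the embryos was not tested.

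**Figure D4:**
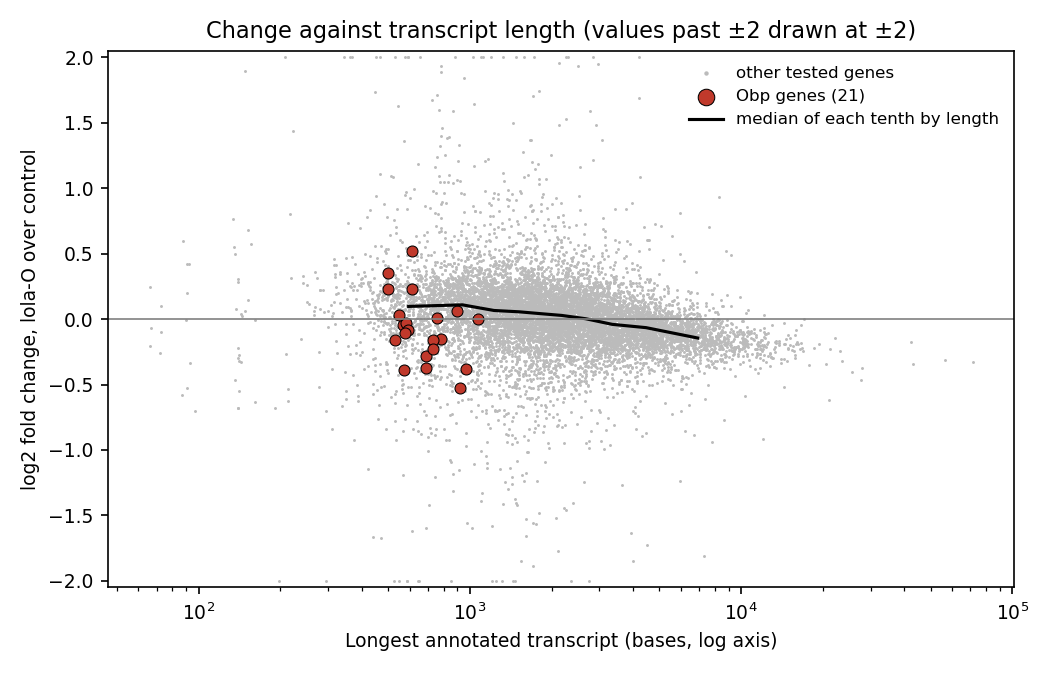
Log2 fold change (lola-O over control) against the length of the longest annotated transcript on a log axis, for tested genes with a length, the 21 Obp genes in red and the medians of 10 equal bins by length as a line. The line runs from about 0.1 at the short end to -0.144 at the long end, and 13 of the 21 Obp genes lie below 0.

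A list of other carrier and perireceptor genes, which includes the Npc2 family, moved in both directions. Npc2e is also counted with the fat body genes below. Of 38 such genes in the files, 13 were tested, of which 4 rose, 4 fell and 5 did not pass. The median log2 fold change was 0.055, and 39.7% of all tested genes were called. With the transcript-length correction 2 rose and 4 fell, and the median was -0.039. EbpIII, of the chemosensory protein family, had 24.8, 20.7 and 23.4 CPM in lola-O, against 30.5, 31.7 and 30.0 CPM in controls, and fell by 0.42 on the log2 scale (adjusted p = 9.85e-08 in edgeR). The esterase gene Est-6 rose by 0.44 and Npc2e, of a family of sterol-binding secreted proteins, by 0.33. Npc2c fell by 1.42 on the log2 scale to 2.65 CPM in lola-O, against 7.21 CPM in controls (adjusted p = 2.93e-12 in edgeR). lush, the carrier for the pheromone response of the adult antenna, had 2 counts summed over the lola-O libraries and 4 over the control libraries.

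Of 11 marker genes of sense organs and their support cells, 8 were tested, 3 fell (sv, nompA and pros), 5 did not pass and none rose, beside 39.7% of all tested genes called. The summed level of the list was 108 to 118 CPM in lola-O and 133 to 141 CPM in controls. amos and cato had no count. pros, made in support cells and neuronal precursors, fell by 0.32 on the log2 scale (SE 0.052, adjusted p = 4.99e-07 in edgeR), but was at -0.047 with the transcript-length correction (adjusted p = 0.515 in edgeR). With that correction nompA alone of the 8 fell, and the list median was -0.16, against -0.27 without it. Among receptors, Orco, the co-receptor of odorant receptors, had 2.95, 3.32 and 2.92 CPM in lola-O, against 4.07, 3.26 and 3.70 CPM in controls, and did not pass (edgeR adjusted p = 0.207). The co-receptor gene Ir25a fell by 0.37 on the log2 scale, with adjusted p of 0.0251 in edgeR and 0.0525 after the length correction. Glia markers, set beside Obp44a, summed to 911 to 927 CPM in lola-O and 935 to 955 CPM in controls, with 2 of 11 tested genes higher and 3 lower, or 1 higher and 3 lower with the correction. The part of these markers in the values of Obp genes was not tested.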

How the data were processed

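The deposited values are raw counts of reads, as whole numbers for each FlyBase identifier, 1 file per library. The build BDGP6 and the tools bedtools 2.25.0, STAR 2.5.2b, SAMtools 1.3.1 and Subread 1.5.1 are named in the submitters' processing notes. How each was used, the strand setting, the handling of multi-mapping reads and the annotation release are not stated there or in the labels, so counts of similar or overlapping genes are uncertain. Symbols came from the name table. Positions and transcript lengths came from Ensembl release 115 (BDGP6.54), in which 306 identifiers had no match.

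Groups followed the titles and genotypes, although the descriptions call all 3 controls replicate 1 and the extraction text speaks of lola-O mutants for all 6 samples; replicate numbers came from the titles. Tests used edgeR 4.0.16 in R 4.3.3 (TMM, filterByExpr, robust quasi-likelihood, no replicate term, Benjamini-Hochberg over 10312 genes, 2-sided), with lola-O over control. SE is the absolute log2 fold change over the square root of F; 95% intervals are 1.96 SE to either side. Alternatives used DESeq2 1.42.0, limma-voom 3.58.1, other scalings and filters, a replicate block, left-out libraries and a transcript-length correction (a loess trend per library, span 0.3, as an offset). The steps were tested on simulated data with larger changes than those called in Obp genes, so that test does not cover these calls. Replicates differed beyond sampling noise (chi-square per degree of freedom 1.94 to 6.14). Expressed Obp genes were described by library or by group mean and SD. Context genes named for a change came from the 4 smallest adjusted p of their list, and not all 4 are given. Orco, lush and genes without counts were named apart from this rule. Members and lists were chosen with earlier results of these data known. Structural and adult-tissue groups are background knowledge.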

Additional observations from a re-analysis of the deposited data

How the results depend on the processing

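Settings were changed one at a time, except that the replicate block was also combined with the transcript-length correction. Of 313 alternative values for the 21 tested Obp genes, 273 kept their direction and side of the threshold. Under scaling, filter, tool and block alternatives 3 or 4 Obp genes passed, and 3 to 5 with a library left out, beside 3481 to 3872 of all genes; 4 Obp genes and 4093 genes passed in the reported fit. With the transcript-length correction 10 Obp genes passed, with or without the replicate block. With a 2-fold requirement 0 Obp genes and 167 genes remained, by the construction of that rule. With a mean of 5 CPM as the limit 13 Obp genes counted as expressed; with a library left out 19 to 20 did. The order by level was the same for 20 genes with union exon length.

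Changes of direction were confined to genes that did not pass in the reported fit. Obp44a was -0.00096 with RLE, -0.0021 without a filter, -0.00021 with the 1 CPM filter, -0.00089 with DESeq2, -0.00022 with the replicate block and -0.079 with the length correction, also with the block; with a library left out it was -0.019 to 0.025. Obp50e was -0.010 with limma-voom, -0.081 with the length correction, -0.062 with the block as well, and -0.15 to 0.21 with a library left out. Obp56a was -0.066 and Obp83cd -0.030 with the length correction, and -0.066 and -0.032 with the block as well. With a library left out, Obp58d was -0.36 to 0.27 and Obp99c -0.069 to 0.0031. The cause was not tested. With the replicate block 4077 genes and 4 Obp genes passed; deviations of same-numbered libraries correlated at -0.0276 to 0.0425, so the numbers were not taken as pairs. Low counts limit Obp50e, Obp58b, Obp58d and Obp47b, and the 30 untested members allow no firm statement on change. Obp57b entered the test in 4 of the fits with a library left out and passed in 2 of them, without control 3 and without lola-O 2.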

Other observations

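The remaining lists of markers and receptors are given as counts of tested genes that rose or fell in lola-O against control embryos. Counts come without and then with the transcript-length correction. Over all tested genes 20.2% rose and 19.5% fell, or 16.7% and 15.1% with the correction. Odorant receptor genes had few counts, with a summed level of 8.8 to 9.98 CPM in lola-O and 9.31 to 10.6 CPM in controls. Of these 61 genes 19 had no count, and 3 were tested with none passing. Of 60 gustatory receptor genes 3 were tested, with none passing edgeR at an adjusted p below 0.05. Of 66 ionotropic receptor genes 6 were tested and 3 fell, Ir25a, Ir62a and Ir93a (2 with the correction, which Ir25a did not pass), and their summed level was 22.7 to 23.9 CPM in lola-O and 25.9 to 28.6 CPM in controls. Of 6 neuron markers 5 fell and none rose, with a list median of -0.16; with the correction 1 fell and 1 rose, and the median was 0.0032. Of 9 blood cell markers 4 fell and none rose, with a median of -0.095; with the correction 2 fell, and the median was -0.0068. NimC1, a phagocytosis receptor gene, had 9.66 ± 1.06 CPM in lola-O and 15.7 ± 0.717 CPM in controls (SD, n = 3 each). The others that fell, Hml, Ppn and Pxn, did not pass with the correction.

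Of 3 tested fat body genes 2 rose and 1 fell, but with the correction all 3 rose: apolpp, a lipid carrier gene, was at -0.14 without and 0.056 with it (adjusted p = 0.0407 in edgeR). Of 9 midgut genes 2 rose and 4 fell (3 and 4 with the correction), with the trypsin gene alphaTry at a log2 fold change of -0.73 and the maltase gene Mal-A1 at 0.82. Of 6 muscle genes 1 rose and 4 fell; with the correction 1 rose and 3 fell, and sls, which encodes a titin-like protein, turned from -0.31 to 0.060. Of 8 epidermis and cuticle genes 3 rose and 2 fell in both fits. Of 4 tracheal genes 2 fell and none rose, and 1 fell with the correction.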
